A study of Drosophila melanogaster with 20 samples.

Results

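*Drosophila melanogaster* embryos that kept the Gcn5 complexes SAGA and ADA but lacked the Chiffon histone acetyltransferase (CHAT) complex were compared with 2 control genotypes by RNA sequencing. The comparison used the 4 libraries of *Ada2b* mutant embryos that expressed only the Ada2b-PB isoform (called PB here) and the 8 control libraries, taken as 1 group, of 20 libraries in the series. PB embryos carried 2 *Ada2b* null alleles, Ada2b842 over Ada2b1, and a transgene that supplied Ada2b-PB. The first control, PA+PB (n = 4), had the same 2 null alleles and carried both transgenes, for Ada2b-PA and Ada2b-PB. The second control, WT (n = 4), was *elav-Gal4>GFP* and carried no *Ada2b* null allele. Each transgene was driven by the regulatory sequence of *Ada2b* itself. The other 8 libraries, 4 of *Ada2b* null embryos and 4 of embryos with Ada2b-PA alone, entered the fit as groups of their own. All embryos were picked by hand for GFP at stages 12 to 14 (12 to 15 for WT replicate 3) and pooled whole, so fewer cells of a type and less RNA per cell cannot be told apart in any value below.

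Gcn5 is a lysine acetyltransferase that acts on histone H3 and works within larger complexes. In *Drosophila* the splice isoform of the adaptor Ada2b sets whether SAGA and ADA or CHAT can form. Ada2b-PB enters SAGA, a large coactivator that also holds a deubiquitylase and the activator-binding subunit Nipped-A, and the small ADA complex. Ada2b-PA joins Gcn5, Ada3 and Sgf29 to the product of *chiffon*, a gene that also encodes the activating subunit of the replication kinase Cdc7, to give CHAT. The genes below were called lower or higher in PB embryos when edgeR's quasi-likelihood test gave a Benjamini-Hochberg adjusted p (FDR) under 0.05 and the log2 fold change was 0.5 or more in size. Levels are CPM, read counts scaled to the effective library size by TMM, in PB replicates 1 to 4 in that order.

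The PB libraries were uneven in depth and content. Counts on genes came to 1656080, 5685029, 4342043 and 33008038 in PB libraries, against 4788765 to 35367055 in control libraries. Genes took 2.51, 5.79, 5.16 and 27.0% of the reads in PB libraries and 10.1 to 32.0% in control libraries (2-sided exact permutation test over samples, p = 0.127). Reads not aligned were 75.6, 20.2, 37.9 and 11.9% in PB libraries and 8.81 to 63.2% in control libraries. PB replicate 1 was the shallowest of the 12 libraries, and the factor of unwanted variation was farthest from 0 in it of all 20 libraries. The number of genes with at least 1 count was 4726, 7916, 7671 and 10528 in PB libraries and 7279 to 12108 in controls (2-sided exact permutation test, p = 0.0465). The spread within the PB group was also wide, with Spearman's rho between replicates of 0.619 to 0.796, against 0.777 to 0.899 in PA+PB and 0.799 to 0.968 in WT. Markers of neurons (*elav*), glia (*repo*), muscle (*Mef2*), blood cells (*srp*), trachea (*trh*) and epidermis (*grh*) were counted in all 12 libraries, whereas the synaptic gene *nSyb* was at 0 in PB replicate 1 and the plasmatocyte gene *Hml* in 3 of the 4 PB libraries.

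Of 10904 genes tested, 599 (5.49%) were lower and 639 (5.86%) were higher in PB embryos than in the 8 controls. With or without a call, 940 genes had all 4 PB values below all 8 controls (8.62%) and 182 had them above (1.67%). The median log2 fold change of all genes tested was 0.15. The balance of the 2 directions moved with the adjustment: without the factor 402 genes were lower and 196 higher, with 2 factors 1042 and 649, with libraries thinned to equal counts 756 and 539, and with the 12 libraries of the comparison fitted alone 164 and 66. The lower genes separated the libraries more often than the higher ones: 457 genes were called lower with all 4 PB values below all 8 control values (4.19%), against 94 called higher with all 4 PB values above the controls (0.862%). Among the genes called lower, 142 overlapped the controls, 60 were at 0 in all 4 PB libraries and 50 in 3 of them. Over all genes tested, 495 were at 0 in all 4 PB libraries. Among the genes called higher, 545 overlapped the controls and 280 had a count of 0 in at least 1 PB library. The part of sequencing depth in the difference between the directions was not tested. The fold changes are adjusted for the factor, so for genes of uneven level they can depart far from the ratio of the mean CPM, and the values of the libraries are given with them. When WT and PA+PB were entered separately, 72 genes were lower (0.66%) and 19 higher (0.174%) against WT, and 440 were lower (4.04%) and 279 higher (2.56%) against PA+PB, 6.59% in either direction. Both controls gave the call for 64 lower genes (0.587%) and 18 higher genes (0.165%), 0.752% in all. Calls depended on single libraries. The lower count was 225 without PB replicate 2, 227 without PA+PB replicate 3, 315 without PA+PB replicate 2, 343 without WT replicate 4, 361 without WT replicate 2 and 1127 without PB replicate 4. The higher count was 258 without PA+PB replicate 2, 265 without PB replicate 2, 284 without WT replicate 4, 298 without PA+PB replicate 3, 316 without WT replicate 2, 405 without WT replicate 1, 412 without PA+PB replicate 4 and between 570 and 697 without any of the other libraries. Even so, 174 lower and 77 higher genes were called with each of the 12 libraries left out in turn. Of these, 74 lower and 22 higher genes were also called in all 13 other fits against both controls at once (fits against WT or PA+PB alone are not counted here), among them 7 transcripts of the mitochondrial genome and 12 cytoplasmic ribosomal protein genes on the lower side and 3 chaperone genes on the higher side.

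Of the genes that encode the Gcn5 complexes, 1 passed the test. *Ada2b* (dm6, chr3R:8236632-8240515) is supplied by the transgene in PB, and its counts do not separate the isoforms. It had 165, 156, 192 and 106 CPM in PB embryos, against 109 to 368 CPM (median 188) in controls, and the groups overlapped (log2 fold change -0.52, SE 0.35, FDR = 0.299). *chif*, the gene of the CHAT-specific subunit, was at 354, 707, 568 and 594 CPM in PB embryos and 456 to 895 CPM (median 561) in controls (log2 fold change 0.07, SE 0.23, FDR = 0.862). The log2 fold change was -0.51 for *Gcn5* (FDR = 0.319), -1.02 for *Ada3* (FDR = 0.0923) and -0.45 for *Sgf29* (FDR = 0.76), none past the test. *Nipped-A* (chr2R:5177965-5251022), the largest subunit of SAGA, also part of the Tip60 complex, had 0, 20.3, 17.9 and 157 CPM in PB embryos and 205.4 to 368 CPM (median 298) in controls, with no overlap (log2 fold change -2.72, SE 0.63, FDR = 0.0138). No other of the 23 subunit genes tested passed, and the median of the list was -0.97. *Ada3* passed the limits in 3 of 15 alternatives. Leaving out 1 library gave 1 to 5 (without PB replicate 4) lower subunit genes, 2 factors gave 4, and the fit without the factor none.

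The 10 protein-coding genes that fell the most, among those averaging at least 10 CPM in the higher group and with no overlap between PB and control libraries, included 6 that were at 0 in all 4 PB libraries. For these a lower bound on the fold was taken against 3 counts per PB library. *kipf* (chr3R:7913851-7916550), which encodes the zinc finger protein Kipferl that guides the piRNA cluster factor Rhino in ovaries, had 0 counts in every PB library and 15.4 to 37.2 CPM (median 31) in controls. It was at least 41.2-fold lower in PB embryos (FDR = 0.00178), and fell against WT (FDR = 0.0056) as well as PA+PB (FDR = 0.0032). *CG11686* (chr3R:13260356-13262227) was likewise at 0 in all PB libraries against 9.31 to 36.7 CPM (median 19.4) in controls, at least 29.96-fold lower. *Arc2* (chr2R:14361924-14362825), one of the capsid-like Arc genes of neurons, was at least 18-fold lower, against 2.39 to 29.1 CPM (median 10.6) in controls. *CG6357* was at least 21.7-fold lower, against 3.26 to 34.6 CPM (median 11.9) in controls.

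*Osi6* and *Fbp1* were also at 0 in every PB library, but their control values ranged widely. *Osi6* (chr3R:6234708-6237181), of the Osiris family of cuticle-forming tissues, ranged from 0.536 CPM in WT replicate 4 to 3722 in PA+PB replicate 1 with a median of 39, and its bound of 792-fold rests on that library. *Fbp1*, the larval fat body receptor for storage protein, ranged 0.233 to 134 CPM in controls, with the highest value in PA+PB replicate 3. The remaining 4 genes had a few counts in PB embryos. *CG31759* (chr2L:12207709-12210110), which lies within *bru1*, had 0, 0, 0.238 and 0 CPM in PB embryos and 11.4 to 42.6 CPM (median 18) in controls (FDR = 0.00278). *CG33941*, within *Asator* on chromosome 4, had 0, 0, 0 and 0.59 CPM in PB embryos and 7.13 to 107 CPM (median 25.3) in controls (FDR = 0.0162), and *CG18586* had 0, 0, 0 and 0.394 CPM in PB embryos and 3.46 to 39.3 CPM (median 9.03) in controls (FDR = 0.0388). The last of the 10, *mt:ATPase6*, is described with the mitochondrial genome. The sources used here do not say whether the libraries kept strand, so reads of a gene and of one that overlaps it on the other strand may not have been told apart.

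The 10 protein-coding genes that rose the most under the same rule were led by *CG6912* (chr3R:15135138-15137004), which had 219, 73.7, 295 and 26.6 CPM in PB embryos and 0 to 21.4 CPM (median 3.57) in controls (log2 fold change 5.64, SE 1.32, FDR = 0.0151). The next was *Hsp83* (chr3L:3192969-3197059), the gene of the cytosolic Hsp90 chaperone, with 590.3, 2466, 2409.6 and 454 CPM in PB embryos and 52.4 to 449.5 CPM (median 213) in controls (log2 fold change 3.34, SE 0.45, FDR = 0.000458). All 4 PB values of *Hsp83* lay above the 8 control values, although PB replicate 4 exceeded PA+PB replicate 1 by only a small margin. *Lpin* (chr2R:8136986-8156654), the phosphatidic acid phosphatase of triglyceride synthesis, had 167, 263, 469 and 156 CPM in PB embryos and 6.23 to 85 CPM (median 46.3) in controls (log2 fold change 2.92, SE 0.53, FDR = 0.00358). *Jra* (chr2R:10096480-10098556), the fly Jun protein that acts in the JNK pathway, was at 29.3, 75, 79.6 and 30.7 CPM in PB embryos and 2.69 to 22.7 CPM (median 18.9) in controls (log2 fold change 2.34, SE 0.61, FDR = 0.0233). The other 6 were *DnaJ-1* (2.54), the metalloprotease gene *tok* (2.36), *Ccdc85* (2.30), the phosphatase gene *Cdc14* (2.30), the lipid regulator *SREBP* (2.30) and the kinesin adaptor gene *syd* (2.29), values being log2 fold changes.

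**Figure D1:**
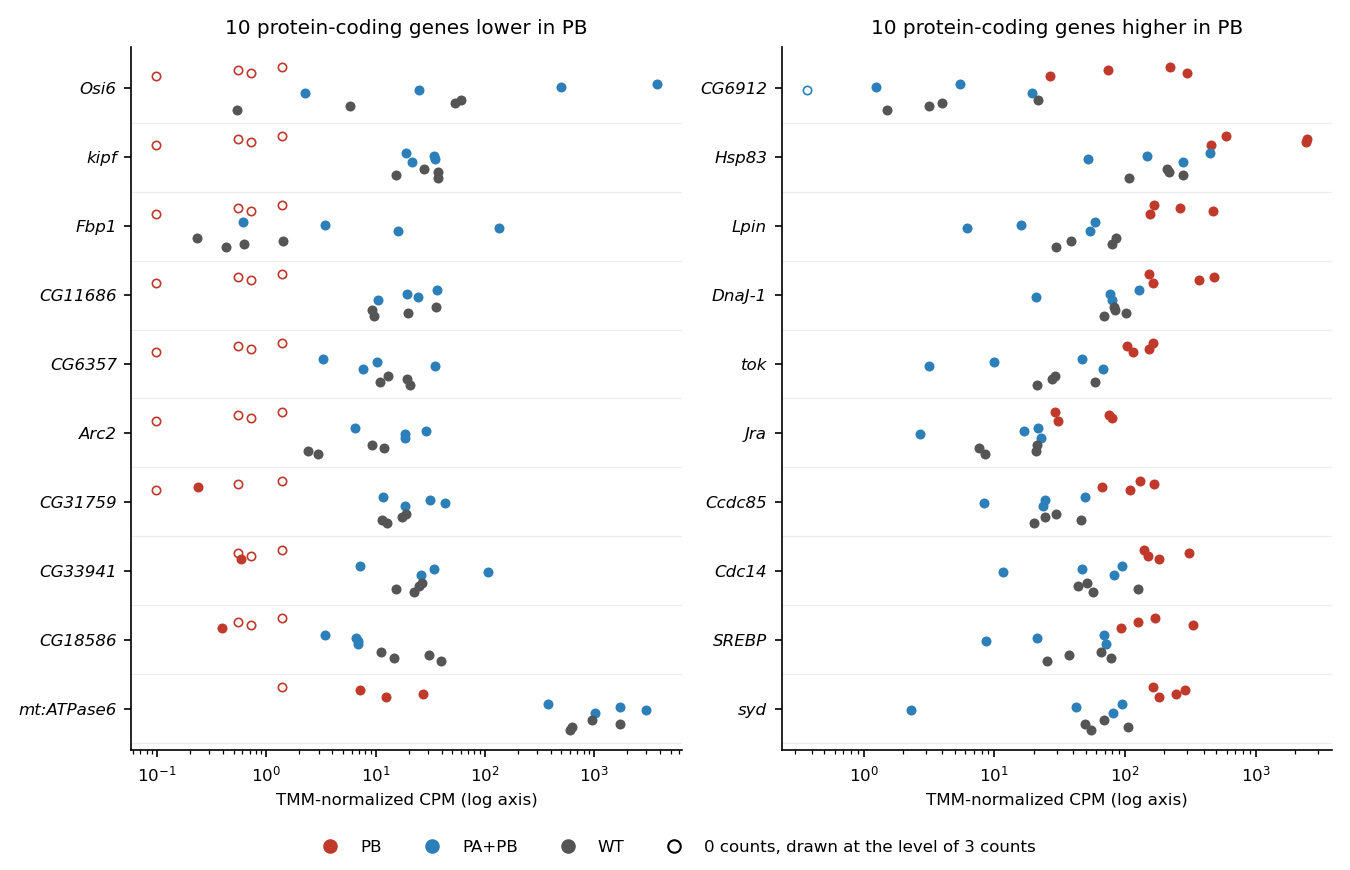
TMM-normalized CPM (log axis) of the 10 protein-coding genes that fell and the 10 that rose the most in PB embryos, 1 point per library (4 PB, 4 PA+PB, 4 WT), open points being libraries with 0 counts drawn at the level of 3 counts. *kipf* was at 0 in the 4 PB libraries and between 15.4 and 37.2 CPM in the controls, and the PB points of *Hsp83*, from 454 to 2466 CPM, lie to the right of the controls.

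Most transcripts of the mitochondrial genome were lower in PB embryos. This genome encodes core proteins of the respiratory chain and of ATP synthase, and the RNAs of the mitochondrial ribosome, which were left out with the other rRNA genes. Of 15 mitochondrial transcripts tested, 11 were lower, none was higher, and 12 lay below all 8 controls, with a median log2 fold change of -4.80, or -4.68 with a transcript at 0 in every PB library set at its bound, against 0.15 for all genes tested. Together they took 0.0222, 0.0246, 0.0367 and 0.0516% of the counts on genes in PB libraries, against 0.957 to 1.98% in the controls. *mt:CoIII* (mitochondrial genome, positions 4736-5524), subunit 3 of cytochrome c oxidase, had 65.6, 57.8, 80.3 and 162 CPM in PB embryos and 3316 to 11077 CPM (median 6421) in controls (log2 fold change -6.15, SE 0.74, FDR = 0.000215). *mt:CoI* (mitochondrial genome, positions 1474-3009), the catalytic subunit of that enzyme, had 66.5, 73.2, 106 and 107 CPM in PB embryos and 1730.5 to 3830.4 CPM (median 2126) in controls (log2 fold change -4.80, SE 0.66, FDR = 0.000458). The 4 PB libraries were close to each other for both genes, and no PB value came near a control value.

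Complex I and ATP synthase transcripts followed the same direction. *mt:ND1*, of the membrane arm of complex I, had 12.1, 32.8, 49.8 and 194 CPM in PB embryos and 770.2 to 3860.3 CPM (median 1373) in controls (log2 fold change -4.68, SE 0.68, FDR = 0.000703). *mt:ND4* had 26.5, 8.33, 9.77 and 9.02 CPM in PB embryos and 123 to 285 CPM (median 178) in controls (log2 fold change -4.59, SE 0.87, FDR = 0.00494). *mt:ATPase6*, which shares bases with *mt:ATPase8* and *mt:CoIII*, had 0, 7.24, 27.2 and 12.5 CPM in PB embryos and 377 to 2940.4 CPM (median 989) in controls (log2 fold change -6.73, SE 0.95, FDR = 0.00055). *mt:Cyt-b*, of complex III, had a log2 fold change of -4.98, and *mt:ND5* one of -5.07. The 4 transcripts that did not pass were *mt:ND4L*, *mt:ND6* and the tRNAs for isoleucine and tyrosine. Against each control alone, 6 transcripts were called lower both times. The count stayed between 9 and 13 of the transcripts with any 1 library left out, and none was called higher. The nuclear genes of the respiratory chain, 38 tested, gave 2 lower and 2 higher calls with a median of 0.20, and of 71 mitochondrial ribosomal protein genes 2 were lower and none higher. The other genotypes share these controls: the median of the 15 transcripts was -0.15 in null embryos and -4.12 in embryos with Ada2b-PA alone, where they took 1.11 to 1.34% and 0.0145 to 0.200% of the counts.

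**Figure D2:**
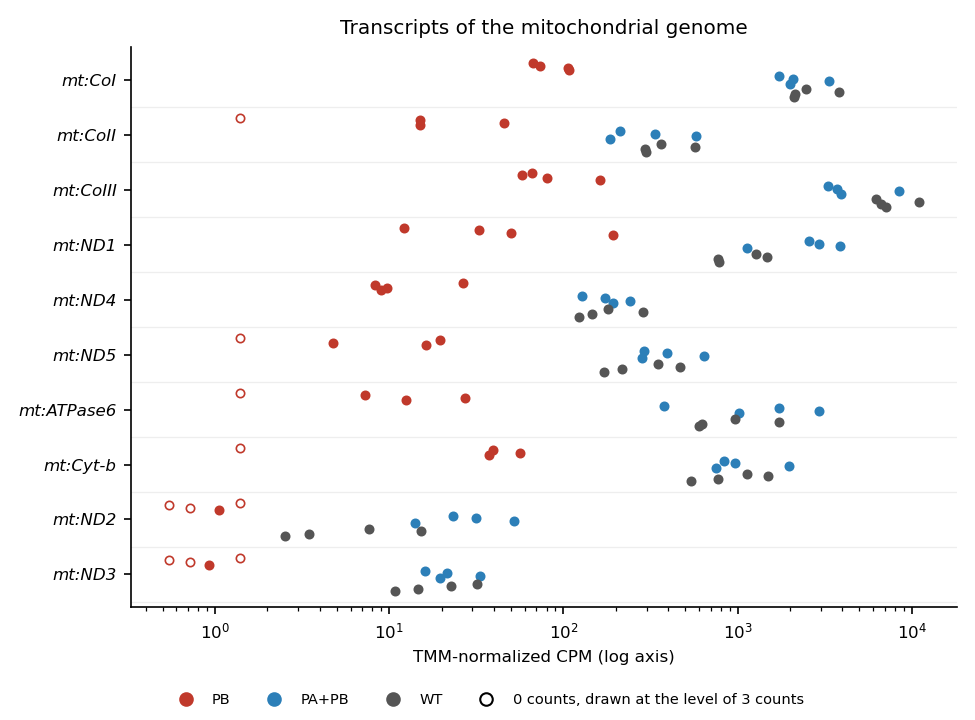
TMM-normalized CPM (log axis) of transcripts of the mitochondrial genome, 1 point per library for the 4 PB, 4 PA+PB and 4 WT libraries, open points being 0 counts drawn at the level of 3 counts. For *mt:CoIII* the PB libraries sit between 57.8 and 162 CPM and the controls between 3316 and 11077 CPM.

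Cytoplasmic ribosomal protein genes, whose products build the cytosolic ribosome, gave mostly lower calls. Of 89 tested, 27 were lower (30.3%) and 6 higher (6.74%) in PB embryos, against 5.49 and 5.86% of all genes tested. Their median log2 fold change was -0.62, and 30 lay below all 8 controls, 4 above them. They took 10.5, 11.6, 10.03 and 8.11% of the counts in PB libraries and 10.5 to 20.7% in controls. *RpL41* (chr2R:24903416-24903935), the gene of the smallest protein of the large subunit, had 117, 895, 894 and 873 CPM in PB embryos and 5766 to 25008 CPM (median 7614) in controls (log2 fold change -3.86, SE 0.54, FDR = 0.00055). *RpL10* (chr3L:23093190-23095471) had 188, 323, 298 and 367 CPM in PB embryos and 1276 to 3797 CPM (median 1438) in controls (log2 fold change -2.62, SE 0.36, FDR = 0.000458). *RpL39* had a log2 fold change of -3.46. *RpL23A* (chr3L:1666288-1668654) stood on the other side, at 4185, 2968, 2971 and 1569.5 CPM in PB embryos and 482 to 1219 CPM (median 876) in controls (log2 fold change 1.57, SE 0.27, FDR = 0.00314). *RpS30* rose too, by 0.94 on the log2 scale. Against both controls taken separately, 7 members were lower and 2 higher. With 1 library left out, 16 (without PA+PB replicate 3) to 33 members were called lower and 1 (without WT replicate 1) to 8 called higher. Ribosomal protein genes with near-identical copies can lose reads that match several places.

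Among genes of protein folding, most calls were higher. Of 33 chaperone and chaperonin genes tested, 10 were higher and 1 was lower in PB embryos, with a median log2 fold change of 1.10. They took 0.918, 1.33, 0.902 and 0.802% of the counts in PB libraries and 0.365 to 0.703% in controls, with no overlap. The share was also above the controls in null embryos (0.901 to 1.03%) and in embryos with Ada2b-PA alone (0.708 to 0.874%). The median of the list against the same controls was 0.91 in null embryos and 0.76 with Ada2b-PA alone. *Hsp70Ab* (chr3R:11958535-11960909), of the heat-inducible Hsp70 genes, had 110.2, 560.0, 349 and 14 CPM in PB embryos and 0.122 to 23.9 CPM (median 4.31) in controls (log2 fold change 5.53, SE 0.99, FDR = 0.00358). PB replicate 4 lay below the highest control, WT replicate 2, and the Hsp70 genes are near-identical copies between which reads could be split. *Hsp70Aa* had a log2 fold change of 6.01, and *Hsp68*, at 0 in PB replicate 1, one of 4.44. *DnaJ-1* (chr3L:5750029-5752189), the Hsp40 partner of Hsp70, had 152, 482, 367 and 164 CPM in PB embryos and 21 to 128 CPM (median 80.8) in controls (FDR = 0.00358). *Hsc70-5*, the mitochondrial Hsp70, had 374, 651, 363 and 298 CPM in PB embryos and 30 to 234 CPM (median 123) in controls (log2 fold change 2.0, SE 0.40, FDR = 0.00627), with no overlap. The cytosolic chaperonin subunits *CCT3* and *CCT7*, the mitochondrial chaperonin *Hsp60A* and the Hsp90 co-chaperone *Stip1* rose by 1.47, 1.39, 1.34 and 1.49 on the log2 scale. The member called lower was the J-domain gene *mrj* (-2.49). Without PB replicate 2 or PA+PB replicate 3, 6 members were called higher.

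**Figure D3:**
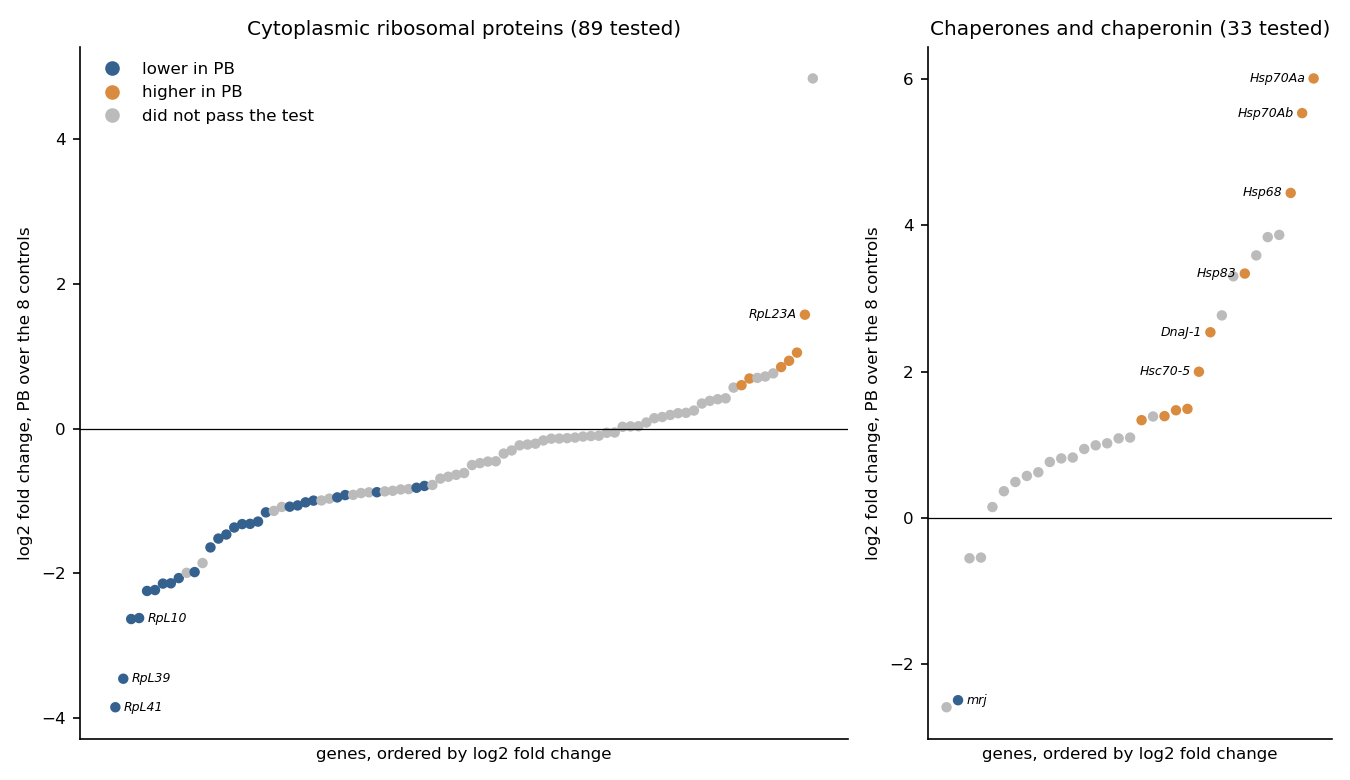
Log2 fold change in PB over the 8 controls for the 89 cytoplasmic ribosomal protein genes and the 33 chaperone and chaperonin genes tested, each point a gene and each set ordered by its value. Blue points (27 and 1) were lower and orange points (6 and 10) higher in PB embryos, and grey points did not pass the test.

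*Xrp1* (chr3R:18914968-18926989), a bZIP factor of the response to ribosomal protein loss and DNA damage, had 827, 833, 2182 and 257 CPM in PB embryos and 36.4 to 298 CPM (median 154) in controls (log2 fold change 3.48, SE 0.64, FDR = 0.00417), PB replicate 4 lying within the control range. *kay* (chr3R:29765995-29794113), the fly Fos protein and partner of Jun, chosen after its value was seen, had 548, 351, 779 and 153 CPM in PB embryos and 43.8 to 199 CPM (median 70.8) in controls (log2 fold change 2.54, SE 0.48, FDR = 0.00491). Again PB replicate 4 overlapped the controls. In the programmed cell death list, *Xrp1*, the caspase inhibitor gene *Diap1* (1.41) and the caspase gene *Damm* were the 3 higher members of 18, none was lower, and the median was -0.29. *Damm* was counted in 1 PB library alone, at 0, 0, 0 and 2.53 CPM, against 0 to 1.73 CPM in controls. The death activator genes *hid* (0.66), *rpr* (-0.57) and *grim* (-0.34) did not pass the test.

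The proteasome gave calls mostly on the lower side. Of 32 subunit genes tested, 8 were lower (25%) and 2 higher (6.25%), against 5.49 and 5.86% of all genes tested. In the list 10 genes lay below all 8 controls, and the median was -0.26. All 8 lower members encode the core particle, which cuts proteins, and the 2 higher ones, *Rpn1* (2.14) and *Rpn2* (1.55), encode the scaffold of the regulatory cap, a split noticed after the values were seen. *Prosalpha4* (chrX:16276270-16277587) had 2.79, 11.6, 0.238 and 15.9 CPM in PB embryos and 92.3 to 237 CPM (median 139) in controls (log2 fold change -4.30, SE 0.77, FDR = 0.00358). *Prosbeta1*, *Prosalpha5* and *Prosbeta3* had log2 fold changes of -3.97, -2.90 and -2.59. With 1 library left out, 3 (without PA+PB replicate 3) to 9 of the subunit genes were called lower, and 0 to 3 higher.

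Genes of chromosome 4, the small chromosome that is largely packed as heterochromatin, gave lower calls and no higher one. Of 91 tested, 22 were lower (24.2%) and none was higher, 28 lay below all 8 controls, and the median log2 fold change was -1.25, or -1.19 with genes at 0 in every PB library set at their bound. They took 0.220, 0.480, 0.547 and 0.889% of the counts in PB libraries and 1.40 to 1.73% in controls. *pho* (chr4:1172469-1181628), which encodes the DNA-binding protein that brings Polycomb complexes to their targets, had 0, 22.8, 8.34 and 35.6 CPM in PB embryos and 143 to 471 CPM (median 217) in controls (log2 fold change -3.96, SE 0.78, FDR = 0.00599). *MED26* (chr4:778516-788978), a subunit of the Mediator coactivator, had 12.6, 62.5, 71.3 and 101 CPM in PB embryos and 289.8 to 679.7 CPM (median 384) in controls (log2 fold change -2.66, SE 0.41, FDR = 0.00133). Both were separate from all controls. *RpS3A* (-2.25), the repair and ubiquitin receptor gene *Rad23* (-2.15) and the ankyrin gene *Ank* (-1.68) were also called lower. With 1 library left out, 10 (without PB replicate 2 or PA+PB replicate 3) to 38 (without PB replicate 4) genes of the chromosome were lower. In null embryos and in embryos with Ada2b-PA alone, against the same controls, the median was -0.53 and -1.05.

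Genes next to the centromere of some other arms also gave many lower calls, and over the first 6 Mb 2R had the highest share. In the first 6 Mb of 2R, the end nearest the centromere, 25 of 77 genes were lower (32.5%) and none was higher, with a median of -2.60, or -2.18 with the 5 genes at 0 in every PB library set at their bound. Against the same controls, the median of these 77 genes was -0.89 in null embryos and -1.57 in embryos with Ada2b-PA alone. On the rest of 2R, 80 of 2108 genes were lower (3.8%) and 130 higher. The limit of 6 Mb and the choice of these regions were made after the values were seen, and no test was run on position. *Nipped-B* (chr2R:4691672-4729017), the loader of cohesin, had 15.8, 22.8, 37.4 and 106 CPM in PB embryos and 304 to 437 CPM (median 355) in controls (log2 fold change -2.84, SE 0.43, FDR = 0.0011). *rl* (chr2R:1071462-1125927), the ERK kinase gene at the same end of 2R, had 0, 7.79, 8.82 and 28.4 CPM in PB embryos and 86.9 to 359 CPM (median 125) in controls (log2 fold change -3.96, SE 0.96, FDR = 0.0169). *CG3107* had a log2 fold change of -4.15. In the first 6 Mb from the centromere, 14 of 106 genes were lower on 3L, 15 of 219 on 3R, 18 of 379 on 2L and 18 of 333 on X, and 2, 10, 15 and 23 were higher. The lower shares were 13.2% on 3L and 6.85% on 3R, whereas those on 2L (4.75%) and X (5.41%) were below the 5.49% of all genes tested. Narrower windows were also chosen after the values were seen. Within 2 Mb of the centromere end, 9 of 57 genes were lower on 2L (15.8%), 2 of 9 on 3L, 0 of 1 on 3R and 1 of 37 on X. From 2 to 4 Mb, 7 of 181 were lower on 2L, 3 of 11 on 3L, 4 of 5 on 3R and 13 of 128 on X. *vtd* on 3L, which encodes the Rad21 subunit of cohesin, had a log2 fold change of -2.82. With 1 library left out, 11 (without PB replicate 2) to 33 (without PB replicate 4) genes of the first 6 Mb of 2R were lower. Some genes called lower in other lists lie in these regions. Among them are *Nipped-A* in the first 6 Mb of 2R, *AGO3* and *mael* in the first 6 Mb of 3L, and *pho* and *gw* on chromosome 4. The part of position in those calls was not tested.

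**Figure D4:**
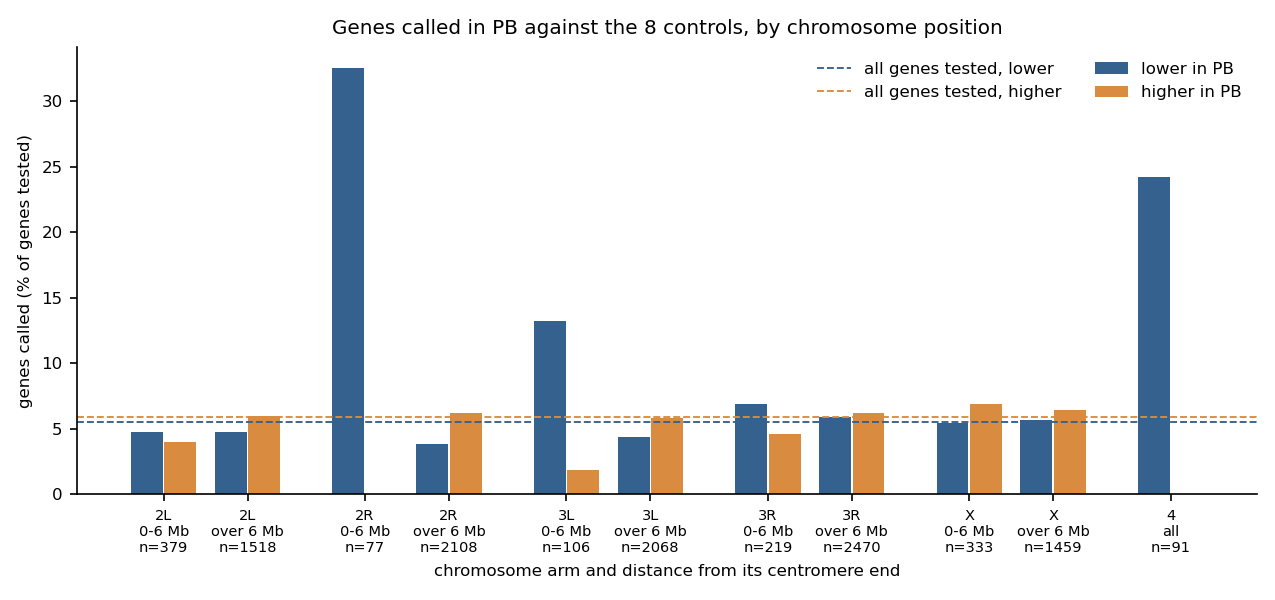
Share of genes tested that were lower (blue) or higher (orange) in PB embryos than in the 8 controls, for the first 6 Mb from the centromere end of each large arm, the rest of the arm, and all of chromosome 4, with dashed lines at the share over all genes tested (5.49% lower, 5.86% higher). The lower share was 32.5% in the first 6 Mb of 2R and 24.2% on chromosome 4.

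In the lists of maternal axis and germ plasm RNAs and of piRNA pathway genes, all calls were lower. Of 29 maternal axis and germ plasm RNAs tested, 5 were lower and none higher, with a median of -1.52, or -1.22 with the members at 0 in every PB library set at their bound. *smg* (chr3L:8990317-8997989), the repressor that clears maternal RNA, had 91.2, 558, 1816 and 123 CPM in PB embryos and 1202 to 5435 CPM (median 3692) in controls (log2 fold change -2.33, SE 0.59, FDR = 0.0206), and PB replicate 3 lay among the controls. *swa*, needed to place *bicoid* RNA, had 0, 32.1, 42 and 1.61 CPM in PB embryos and 81.5 to 247 CPM (median 171) in controls (log2 fold change -3.04, SE 0.84, FDR = 0.0291), without overlap. The protease genes *snk* and *ndl* of the dorsoventral pathway were at 0 in every PB library. *snk* was at least 7.54-fold lower, whereas *ndl* reached only 1.17 CPM in the highest control and has no bound above the floor. *CycB* was the fifth member called lower. Of 28 piRNA pathway genes, which silence transposons in the germ line, 4 were lower and none was higher, and the median was -2.10. *AGO3* (chr3L:23554593-23689640), the Piwi protein of the amplification cycle, had 0, 10.7, 30.7 and 1.51 CPM in PB embryos and 78.4 to 453 CPM (median 166) in controls (log2 fold change -4.12, SE 1.16, FDR = 0.03). *vret*, *mael* and *squ* had log2 fold changes of -4.80, -2.98 and -2.56, and all 4 genes were at 0 in PB replicate 1. With 1 library left out, 1 (without PA+PB replicate 3) to 8 maternal RNAs and 0 (without PB replicate 2) to 9 (without PB replicate 3) piRNA pathway genes were called lower.

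RNA turnover and division genes also gave lower calls. *me31B* (chr2L:10239341-10242172), the DEAD-box helicase of RNA granules, had 0, 74.3, 130.1 and 126 CPM in PB embryos and 549 to 1854 CPM (median 956) in controls (log2 fold change -3.68, SE 0.74, FDR = 0.00647), without overlap. It was 1 of 5 lower members among 30 mRNA decay genes, of which 2, *Upf1* (1.78) and *Smg5* (1.41), both of nonsense-mediated decay, were higher. Of the decay genes, 1 (without PB replicate 2) to 8 (without PB replicate 4) were lower with 1 library left out, and 0 (without PB replicate 2) to 2 were higher. Of 46 replication and cell cycle genes, 7 were lower and none higher, with a median of -0.52. *Cdk1* (chr2L:10384739-10386262), the mitotic kinase, had 0, 15.8, 8.58 and 30.3 CPM in PB embryos and 127 to 523 CPM (median 212) in controls (log2 fold change -4.29, SE 1.05, FDR = 0.0175). *CycD* (-2.05), *polo* (-1.95) and *CycB* (-1.52) were next. All 7 act in the control of division, and no gene of the replication machinery on the list passed. With 1 library left out, the cell cycle count ranged from 2 (without PB replicate 2) to 13 (without PB replicate 4) lower and from 0 to 4 (without PB replicate 3) higher.

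Of 23 hemocyte and basement membrane genes tested, 7 were higher and none lower, with a median of 1.80, and the list took 2.02, 1.36, 2.31 and 1.41% of the counts in PB libraries, against 0.0639 to 1.16% in controls. *srp* (chr3R:15986152-16004085), the GATA factor of blood cells and fat body, had 416, 285, 242 and 503 CPM in PB embryos and 13.6 to 189 CPM (median 94) in controls (log2 fold change 2.15, SE 0.49, FDR = 0.013). *Pxn* (chr3L:2601455-2630064), the matrix peroxidase made by hemocytes, had 116, 123, 112 and 171 CPM in PB embryos and 12.3 to 93.5 CPM (median 44) in controls (log2 fold change 2.27, SE 0.67, FDR = 0.0367). For neither gene did PB and control libraries overlap. *Tig* (2.69) and the laminin gene *LanB2* (1.73) were the other members with the largest rises. The plasmatocyte gene *Hml* was at 0 in 3 PB libraries. The list gave 1 (without PB replicate 2) to 11 (without PB replicate 1) higher calls with 1 library left out, and none with the 12 libraries fitted alone.

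Of 37 neuron and synapse genes, 6 were higher and none lower, with a median of 1.42, but the called genes were uneven among PB libraries. *futsch* (chrX:1409069-1453686), a microtubule protein gene of axons, had 48.4, 137, 256 and 35.1 CPM in PB embryos and 11 to 129 CPM (median 47.9) in controls (log2 fold change 2.47, SE 0.73, FDR = 0.0361). *brp*, the active zone gene, had 128, 168, 848 and 13.1 CPM in PB embryos and 5.14 to 269 CPM (median 31.9) in controls (log2 fold change 3.80, SE 1.19, FDR = 0.0445). *Ddc*, of dopamine synthesis, had 0, 79, 117 and 0.492 CPM in PB embryos and 0 to 57.9 CPM (median 0.446) in controls, and *robo3*, an axon guidance receptor gene, 0, 47.5, 87.7 and 1.21 CPM in PB embryos and 0 to 66.3 CPM (median 16.2) in controls. All 4 genes overlapped the controls, and only 1 of the 37 members lay above all 8 control values. Without the factor none of the 37 was called higher and the median was 0.78, and with 1 library left out 2 (without WT replicate 2) to 10 (without PB replicate 3) were higher. The median of this list was -0.06 without the 2 shallowest libraries of the 20, which include PB replicate 1. Glial genes gave 4 higher of 19, *pnt* (1.43), *nrv2* (1.43), the engulfment receptor gene *drpr* (1.46) and the glutamate transporter gene *Eaat1*, which had 0, 47.1, 54.3 and 3.25 CPM in PB embryos and 0 to 36.8 CPM (median 1.32) in controls. Neuroblast genes gave 3 higher of 27 (11.1%), namely *mira* (1.99), *pros* (1.79) and *grh* (1.74), with 0 to 6 (without PB replicate 3) when 1 library was left out and a median of 0.05 without PB replicate 4. Muscle and mesoderm genes gave 3 of 34 (8.82%), *Zasp52* (2.55), *mbc* (1.59) and *Tm1* (1.51), with 2 (without WT replicate 4) to 12 (without PB replicate 4) when 1 library was left out. Over all genes tested 5.86% were higher. The lists of gut, fat body and Malpighian tubule gave 4 higher and 1 lower of 17. No neuron, glial, neuroblast or muscle gene was called lower. Some called genes were counted in several lists. *Ddc* was also among the later-stage markers, *pnt* among segment polarity genes and *nrv2* among septate junction genes. *srp* was in both the hemocyte and the fat body lists, and *grh* was also used above as an epidermis marker.

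Septate junctions seal the epidermis, and 3 of 22 of their genes were higher. *cora* (chr2R:19229063-19243751), which encodes the junction protein Coracle, had 1524, 1256, 1760.0 and 1253 CPM in PB embryos and 120.2 to 864 CPM (median 408) in controls (log2 fold change 2.10, SE 0.41, FDR = 0.0056). The PB values were alike and all lay above the controls. The other 2 were *nrv2* (1.43) and *hoka*, which had 0, 69.5, 175 and 8.53 CPM in PB embryos and 0 to 51.1 CPM (median 11.1) in controls, with overlap. Cuticle protein genes of the Cpr and Twdl families, made in the epidermis later in development, gave 6 higher of 67, with a median of 3.24. Of these 67 genes only 8 had counts in all 4 PB libraries, and each of the 6 called was at 0 in 1 or 2 of them. Without the factor none was higher and the median was 0.45, with 3 factors 2 were higher and the median was 0.69, and 1 (without PB replicate 3) to 10 (without PB replicate 4) were higher with 1 library left out. Markers of stages after the sampled ones gave 2 higher of 21 with a median of 1.04. Those of earlier stages gave 0 of 16, with a median of 1.08. Those of follicle cells and eggshell gave 0 of 7, with a median of 3.24. The part of embryo age in these values was not tested.

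**Figure D5:**
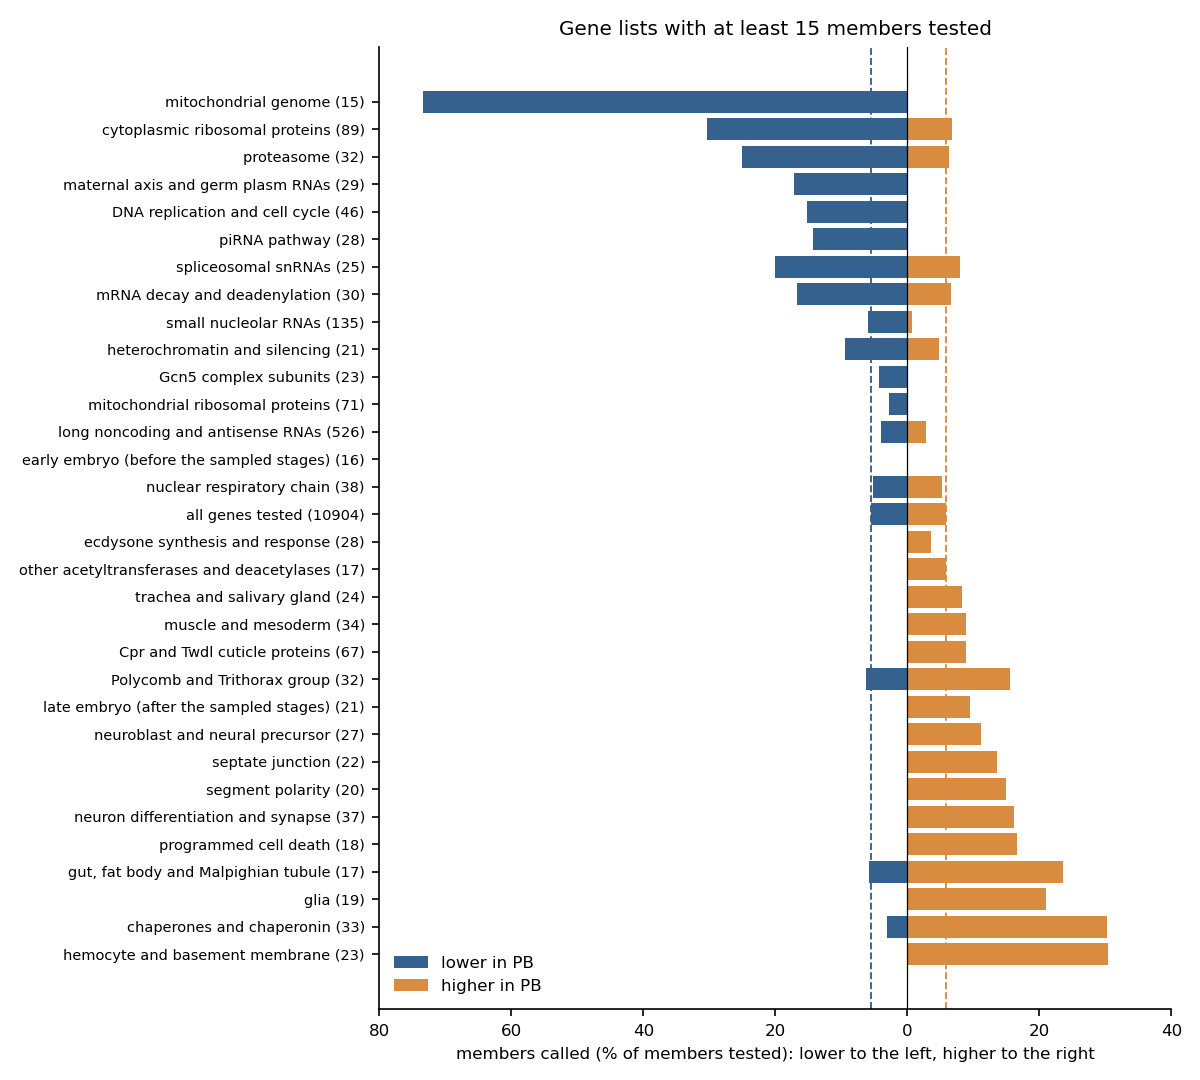
Share of tested members that were lower (blue, to the left) or higher (orange, to the right) in PB embryos for each gene list with at least 15 members tested, the number tested in parentheses, with dashed lines at the share over all genes tested (5.49% lower, 5.86% higher). The mitochondrial genome, 11 of 15 lower, stands farthest to the left, and the hemocyte and chaperone lists, with 7 of 23 and 10 of 33 higher, are among those farthest to the right.

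Chromatin regulators gave few calls. Of 32 Polycomb and Trithorax group genes, 5 were higher (15.6%) and 2 lower (6.25%), with a median of 0.48. Over all genes tested 5.86% were higher and 5.49% lower. When 1 library was left out, 1 (without PB replicate 2) to 10 (without PB replicate 3) were higher and 1 to 5 (without PB replicate 1) lower, and the median was -0.20 without PB replicate 4. The higher members with the largest change were *E(z)* (2.61), the histone H3 lysine methyltransferase of Polycomb complexes, and *ph-p* (2.25), and the lower ones were *pho* (-3.96) and *ash2* (-1.69). *E(z)* passed the limits in 4 of 15 alternatives and lost its call in 7 fits with 1 library left out, whereas *ph-p* passed in 12 of 15 and lost its call in 2. Among 21 heterochromatin genes, *HP4* (-2.71) and *Su(var)2-HP2* (-1.03) were lower (9.52%) and *bon* (1.23) higher (4.76%). Of 17 other acetyltransferases and deacetylases, *HDAC4* (1.41) was higher (5.88%) and none lower. Of 12 genes of the miRNA and siRNA pathways, *gw* (-1.72) and *AGO1* (-0.93) were lower and *AGO2* (1.49) higher. The remaining lists gave at most 3 calls each. Hox genes gave 1 higher of 8 (*Antp*, 1.62), segment polarity genes 3 higher of 20, trachea and salivary gland genes 2 higher of 24, ecdysone genes 1 higher of 28, and dosage compensation genes 1 lower of 9. No member was called among 6 histone genes and 10 tRNA genes tested.

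Small nuclear RNAs held the call with the lowest FDR of all genes tested. *snRNA:U2:34ABb* (chr2L:13215839-13216030), a copy of the U2 RNA that pairs with the branch point of introns, had 254, 1045, 1032 and 296 CPM in PB embryos and 3.75 to 27.2 CPM (median 13.7) in controls (log2 fold change 5.71, SE 0.54, FDR = 6.08e-06). It rose against WT by 5.0 (FDR = 0.000349) and against PA+PB by 6.54 (FDR = 1.88e-05) on the log2 scale. *snRNA:U2:14B* (chrX:16254672-16254863), another U2 copy, had 27, 271, 211 and 78.5 CPM in PB embryos and 2.58 to 27.1 CPM (median 14.5) in controls (log2 fold change 3.70, SE 0.61, FDR = 0.0021). The U2 genes are near-identical, so reads could be split between them or lost. Copies of U1 and U5, which recognise the splice sites, went the other way: *snRNA:U5:38ABa* (chr2L:19811948-19812074) had 0, 0, 0 and 1.80 CPM in PB embryos and 10.4 to 273 CPM (median 48.5) in controls (log2 fold change -7.44, SE 1.66, FDR = 0.0119). Its values were 10.4 to 28.3 CPM in WT and 68.7 to 273 CPM in PA+PB. It was called against PA+PB (FDR = 0.0034) but not against WT (FDR = 0.0934). In all, 5 of 25 snRNA genes were lower and 2 higher, with a median of -1.69, or -1.23 with the members at 0 in every PB library set at their bound. In null embryos and in embryos with Ada2b-PA alone, against the same controls, the log2 fold change of *snRNA:U2:34ABb* was 2.04 and 5.16.

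Of 135 small nucleolar RNAs, 8 were lower (5.93%, near the 5.49% of all genes tested) and 1 higher, with a median of -1.33, or -0.85 with the members at 0 set at their bound. The lower count was 0 with 3 factors and ran from 1 (without PB replicate 2) to 32 (without PB replicate 4) with 1 library left out. Of 526 long non-coding and antisense RNAs 21 were lower and 15 higher, and 88 had no count in any PB library. *lncRNA:CR43837* (chrX:6995882-6997799) was at 0 in all 4 PB libraries and 21.4 to 71.2 CPM (median 44) in controls, at least 64-fold lower (FDR = 0.00133). *asRNA:CR43460*, which lies within *rdx*, was at least 42.1-fold lower, and *asRNA:CR43812* at least 26.1-fold lower. The non-coding genes with the largest fitted rises, *asRNA:CR44351*, *asRNA:CR43430* and *mir-999*, had counts in at most 2 of the 4 PB libraries.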

How the data were processed

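RNA was taken from pooled whole embryos, and libraries were made with the NuGEN Ovation kit, and whether strand was kept is not given in the sources used here. Per the labels and the study's methods, the authors trimmed reads with Trimmomatic, aligned them with HISAT2 to BDGP6 and counted them per gene with HTSeq 0.11.1. The deposited table holds raw counts, with names in its header 1 cell to the right of the values. Of 17807 genes, 138 rRNA genes were dropped, as were GFP, Gal4 and the 5 summary rows. The remaining 17669 genes were filtered by edgeR's filterByExpr, which left 10904. Positions are those of Ensembl release 115 (dm6).

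All 20 libraries were fitted in edgeR 4.0.16 under R 4.3.3 by quasi-likelihood, with TMM scaling, WT and PA+PB as 1 group and 1 factor of unwanted variation estimated from replicates with own code after RUVs, since that package was not used. Adjusted p-values are Benjamini-Hochberg over all genes tested, and standard errors were taken from the log2 fold change and its F statistic. Single library measures were compared by 2-sided exact permutation over the libraries (smallest p 0.00202). The fit of PB against the 8 controls was tested on simulated data. It called 19 of 100 genes changed by 2 on the log2 scale, 47 of 100 changed by 4, and 2 of 9902 unchanged genes. A gene that did not pass the test can therefore still have changed. The simulated counts were drawn from the means and spread that the same model fitted. Changed genes were picked only above a minimum mean count. The simulation therefore cannot give the rate of false calls in these libraries, nor the recovery of genes with few counts. Alternatives included DESeq2 1.42.0, other filters, scalings and factors, and each library left out. Counts per library ranged from 1656080 to 35367055, which sets a floor of 3 counts at 1.40 CPM in PB replicate 1 and 0.0984 CPM in PB replicate 4, for counting error only.

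Nothing says that replicates came from separate crosses, so p-values measure the spread between these libraries. The gene lists and the members were chosen with earlier results of these data known. Named were 5 subunits, the 10 protein-coding genes with the largest change each way among genes called, averaging at least 10 CPM in the higher group and without overlap, up to 4 called members of each list, and up to 3 called non-coding genes each way. Other genes were named after their values were seen, as were the lists of chromosome 4 and the centromere ends. No table of sequences was used here, and none is printed.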

Additional observations from a re-analysis of the deposited data

Results flagged for a closer look

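Each gene or library measure was looked at within its group of 4 libraries for a library far from the other 3, and 13 of 84 groups had one (15.5%). The limit used gives about 1 in 20 only for normally distributed values. CPM need not be so distributed, and a group with counts in 1 library alone always passes the limit, so the shares cannot be compared. PB replicate 4 had 33008038 counts on genes and 27.0% of its reads on genes, far above the other 3 PB libraries. PB replicate 3 held the only counts of *CG31759* in the PB group (0.238 CPM). PB replicate 4 held the only ones of *CG33941* (0.590 CPM) and *CG18586* (0.394 CPM).

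Among the controls, PA+PB replicate 1 had 63.2% of reads not aligned, with 3722 CPM of *Osi6*, far above the other PA+PB libraries, and 3.46 CPM of *CG18586*, below them. PA+PB replicate 3 had 134 CPM of *Fbp1*. WT replicate 4 stood apart for *chif* (895 CPM), WT replicate 1 for *CG6912* (21.4 CPM), and WT replicate 3 for *Ada3* (84.1 CPM) and *Cdc14* (126 CPM).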

How the results depend on the processing

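Against the 599 lower and 639 higher genes, a minimum mean of 10 CPM gave 365 lower, 2 factors 1042 lower, 3 factors 364 lower, no factor 196 higher, DESeq2's Wald test 1113 lower and 962 higher, and the 12 libraries alone 164 lower and 66 higher. WT alone as control gave 72 lower and 19 higher, and PA+PB alone gave 279 higher. Of the genes named by rule, 103 lost their call against WT alone and 41 against PA+PB alone. Chosen after seeing the data, leaving out the 2 shallowest libraries (PB replicate 1 and a library of embryos with Ada2b-PA alone) gave 1110 lower, and the 12 libraries alone without a factor 125 lower and 30 higher. Without any 1 library, 225 to 1127 genes were lower and 258 to 697 higher. Against both controls, 64 genes were lower, with 109 under no factor, 319 under 2 factors, 153 under 3 factors, 407 under DESeq2, 12 in the 12 libraries alone, 186 after thinning and 13 to 501 without any 1 library. The 18 higher genes became 37 under DESeq2 size factors, 131 and 87 under 2 and 3 factors, 314 under DESeq2's test, 2 in the 12 libraries alone, 76 after thinning and 3 to 129 without any 1 library. Causes were not tested, apart from the smaller number of genes or libraries in the fit where the setting itself removes them.

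Replicate numbers did not pair the libraries: same-number correlations ran from -0.489 to 0.522, 3 of 12 over 0.1. A replicate block gave 416 lower and 243 higher genes, and 35 lower and 7 higher against both controls.

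Thinned to 1656080 counts, PB libraries held fewer genes with a count than controls on average (difference -1942.8, p = 0.0505, exact permutation test over libraries). Of the genes named by rule, 4 that were called changed sign, as did the uncalled *Ada2b* (0.12 against WT alone), *Sgf29* (0.044 with 3 factors) and *chif* (down to -0.17). Without both shallow libraries the log2 fold change was -0.26 for *robo3*, -0.16 for *Hr38*, -0.094 for *Damm* and -0.20 for *Twdlbeta*. *Damm* ranged from -2.19 (without PB replicate 4) to 5.90, and *Twdlbeta* from -0.56 (without PB replicate 2) to 13.2, without any 1 library. Without a factor *Twdlbeta* was at -1.67, and at -1.92 in the 12 libraries alone. The median of all genes was -0.16 without a factor and -0.25 with 2 factors. Among the lists, the sign of the median also turned for the other acetyltransferases, cell death, nuclear respiratory chain, histone and non-coding RNA lists under at least 1 scaling, and that of the Polycomb and Trithorax list turned to -0.20 without PB replicate 4. In the 12 libraries alone without a factor, none of the Gcn5 subunit, hemocyte, neuron, muscle, neuroblast, cuticle, mRNA decay and small nucleolar RNA genes was called. Depth limits most what the shallow PB replicate 1 can show.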

Other observations

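The spectrin membrane skeleton, a scaffold under the plasma membrane, held 2 of the 22 genes called higher in every fit against both controls together, and both were chosen after their values were seen. *alpha-Spec* had 2311, 2197, 2495 and 2517 CPM in PB embryos, against 264 to 1275 CPM in controls (log2 fold change 1.94, SE 0.32, FDR = 0.0021 by edgeR). *beta-Spec* rose by 1.89 on the log2 scale. The RNA-binding protein gene *larp* had 2812, 2252, 2175 and 2101 CPM in PB embryos, against 682 to 1452 CPM in controls, and rose by 1.36. On the lower side of the same set were the histone variant gene *His2Av* (log2 fold change -2.0) and the splicing factor gene *B52* (-1.83).

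The calls also differed in transcript length. The median exonic length was 2046.5 bases over 546 genes called lower with a length, 3030 bases over 619 called higher and 2117 bases over 10050 tested. In the longest of 4 length classes of genes, 4.66% were lower and 10.9% higher in PB embryos, with a median log2 fold change of 0.68. In the shortest class, 6.09% were lower and 4.70% higher, with a median of -0.39. Over all 4 classes the lower share ran from 4.66 to 6.09%, and the higher share from 4.06 to 4.93% outside the longest class. The part of length in the lists above was not tested.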
